A study of Mus musculus with 68 samples.

Results

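Srxn1, the gene of sulfiredoxin, and 9 further genes of the Nrf2 antioxidant response (Nfe2l2, Nqo1, Gclc, Gclm, Txnrd1, Hmox1, Prdx1, Txn1 and Akr1b3) were followed through every library of a mouse study of Egf, the epidermal growth factor, given into the blood. The 10 genes were taken by symbol from a table of 56748 genes, each symbol matched 1 entry, and all 10 passed the filter on low counts in all 4 organs. Srxn1 was chosen by its high level in liver 6 h after Egf, and the others were chosen by name to see whether further Nrf2 genes were high with it. The liver comparison at 6 h is therefore a description here, with no test.

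The mice were wild-type C57BL/6J females aged 10 weeks. Egf was given by retro-orbital injection at 1 mg/kg under isoflurane, dissolved in phosphate-buffered saline, and vehicle mice had only the saline under the same anaesthesia. Heart, lung, kidney and liver were frozen 2 h or 6 h later, and untreated mice, which had no injection, gave a further control. Per organ there were 4 libraries for each Egf group and 3 for each vehicle or untreated group, in all 68 libraries in 20 groups.

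Nrf2, the product of Nfe2l2, is a transcription factor that Keap1 holds in the cytoplasm and marks for degradation. Oxidants and electrophiles modify Keap1, Nrf2 then enters the nucleus, and with a small Maf protein it binds antioxidant response elements, where Bach1 acts as a competing repressor. Its targets make and use glutathione and thioredoxin, reduce quinones and degrade haem, and the liver is an organ in which this response is well known. Sulfiredoxin repairs peroxiredoxins that hydrogen peroxide has over-oxidised, and its promoter is known to respond to both Nrf2 and AP-1, the Fos and Jun factors that growth factors induce.

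Libraries held between 13271813 and 24972005 counted reads. The spread between replicates, as edgeR's biological coefficient of variation, was lowest in kidney (0.192) and liver (0.224) and higher in lung (0.283) and heart (0.389). Levels are given as CPM, the read count of a gene scaled by the library's size after TMM normalization within the organ. Changes are given as log2 ratios ± SE from edgeR's quasi-likelihood fit, with Benjamini-Hochberg adjusted p values over every gene tested in the organ and 0.05 as the threshold. Each organ showed the markers of its own main cell type, with hepatocyte markers summing to at least 101654 CPM in every Egf and vehicle liver library. In 8 libraries, 7 of heart and 1 of lung, markers of another organ summed to at least 500 CPM and at least 10 times the organ's median. The heart libraries were Egf 6 h replicates 1 and 3, vehicle 2 h replicate 1, vehicle 6 h replicate 2 and all 3 untreated ones, and the lung library was Egf 6 h replicate 3. Organs are mixtures of cells, so a change in the number of cells of a type and a change in RNA per cell cannot be told apart. The labels do not name the mouse behind each library, and p values measure the spread between these libraries.

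In liver, Srxn1 was higher after Egf at both times. At 2 h it had 107, 107, 115 and 195 CPM in the 4 Egf libraries, against 44.8, 60.7 and 43.1 CPM in the 3 vehicle libraries. At 6 h it had 324, 386, 217 and 433 CPM in the Egf libraries, against 46.5, 56.1 and 42.5 CPM in the vehicle libraries. The untreated livers, with 38.4, 46.2 and 34.8 CPM, lay close to both vehicle groups. Every Egf liver was above every vehicle and untreated liver, and every Egf liver at 6 h was above every Egf liver at 2 h.

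Srxn1 (ENSMUSG00000032802) lies on the plus strand of chromosome 2 from 151947436 to 151953296 on mm39. The others, like it protein-coding, lie on chromosomes 2 (Nfe2l2), 3 (Gclm), 4 (Prdx1 and Txn1), 6 (Akr1b3), 8 (Nqo1 and Hmox1), 9 (Gclc) and 10 (Txnrd1). The rise of Srxn1 in liver at 2 h, which played no part in its choice, was 1.40 ± 0.24 on the log2 scale, or 2.64-fold, with an edgeR adjusted p of 0.00181. Of all genes tested there, 3.92% passed in either direction and 1.95% passed as higher, and 7.04% had every Egf library above every vehicle library. At 6 h the log2 difference was 2.81 ± 0.26, or 7.03-fold, in a comparison in which 0.0883% of genes passed and 4.52% had every Egf library above every vehicle library. The Egf effect on the log2 scale was thus 1.41 ± 0.33 larger at 6 h than at 2 h, again a description, since it contains the comparison that chose the gene.

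Markers of 2 other cell types moved with the liver groups or with 1 library at 2 h. The 7 neutrophil markers summed to 3.02 to 9.17 CPM in Egf libraries and 1.88 to 2.81 CPM in vehicle libraries, 4 were tested, none passed, and Ly6g was at 0 throughout. The neutrophil sums of Egf replicates 1 to 4 were 9.17, 7.46, 4.36 and 3.02 CPM. Egf replicate 1 also carried 178 CPM of the 6 adrenal cortex markers, against 0.658 to 2.15 CPM in the other Egf livers and 1.06 to 1.36 CPM in the vehicle livers. Without that library the Srxn1 change at 2 h was 1.49, with an edgeR adjusted p of 0.00231. The part of these markers in the Srxn1 values was not tested.

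**Figure D1:**
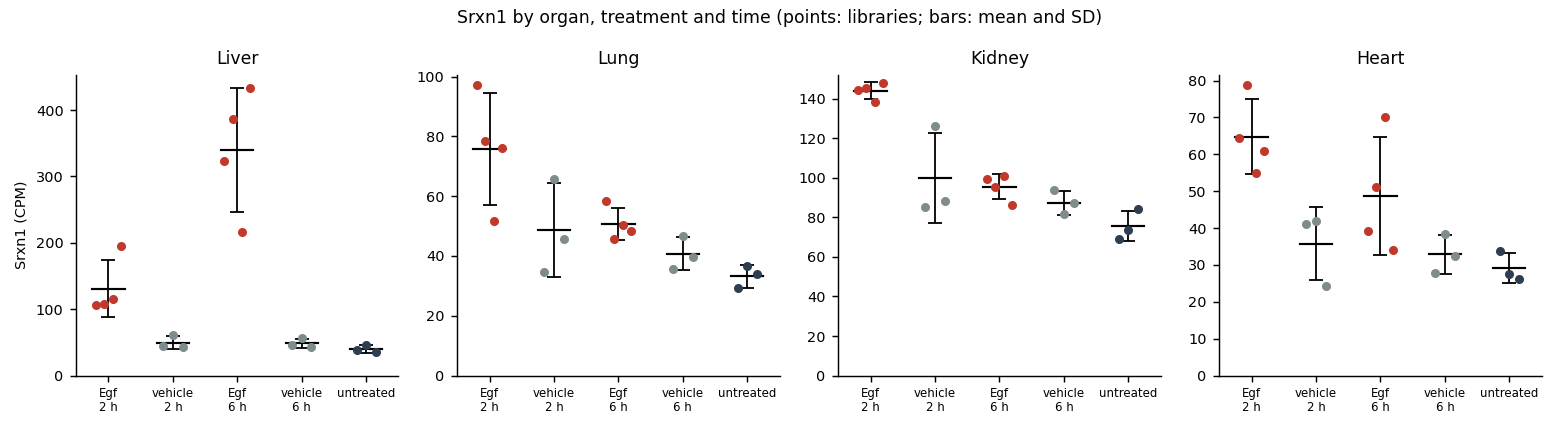
Srxn1 in CPM (vertical axis, 1 scale per organ) in every library of liver, lung, kidney and heart, by group; points are libraries, and horizontal bars with whiskers are the mean and SD. The 4 Egf livers at 6 h, between 217 and 433 CPM, stand above every other liver library, whereas in the other organs the highest Egf values are at 2 h.

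The promoter sequences of Srxn1 and Prdx1 are shown because both windows hold the motif of Nrf2 and that of AP-1, while the transcripts differed in how they followed Egf. Each window runs from 250 bases before the gene's start to 50 after it, is taken from RefSeq on build GRCm38.p6, which is older than the build of the counts, and is written 5′ to 3′ on the gene's strand, with the motif letters in capitals. The Srxn1 window is chr2:152105274-152105573 on the plus strand and the Prdx1 window is chr4:116685349-116685648 on the plus strand.
Srxn1: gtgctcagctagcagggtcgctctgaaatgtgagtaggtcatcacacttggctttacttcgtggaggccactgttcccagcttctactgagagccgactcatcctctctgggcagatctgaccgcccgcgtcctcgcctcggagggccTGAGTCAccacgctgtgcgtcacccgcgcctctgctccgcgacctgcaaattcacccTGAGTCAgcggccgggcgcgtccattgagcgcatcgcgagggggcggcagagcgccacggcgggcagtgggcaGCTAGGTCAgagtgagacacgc
Prdx1: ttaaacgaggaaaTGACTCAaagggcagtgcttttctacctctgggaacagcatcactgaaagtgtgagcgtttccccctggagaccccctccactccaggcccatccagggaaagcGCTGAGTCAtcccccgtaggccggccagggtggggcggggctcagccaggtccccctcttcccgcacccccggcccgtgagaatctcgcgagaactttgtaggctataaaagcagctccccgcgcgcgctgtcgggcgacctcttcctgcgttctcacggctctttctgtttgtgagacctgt
The motifs searched on both strands were the core of the antioxidant response element, TGACNNNGC, and the AP-1 motif, TGANTCA. Counted from 1 at the window's first base, Srxn1 held the AP-1 motif at 149 to 155 and at 206 to 212, both as TGAGTCA, and the element core on the reverse strand at 279 to 287. Prdx1 held the AP-1 motif at 14 to 20 and at 120 to 126, the second of these inside the element core at 118 to 126. Of 32851 promoter windows in the table, 12.4% held the element core, 7.81% the AP-1 motif and 1.17% both. Windows were found for 7 of the 10 genes, 9 windows in all, and Gclc, Hmox1 and Akr1b3 had none. The element core was also in the windows of Nfe2l2 and Gclm and in 1 of the 3 windows of Txnrd1, and neither motif was in those of Nqo1 and Txn1. A motif match describes the letters only and shows no binding. A gene without a match in these short windows may hold the motif outside them.

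Outside liver, Srxn1 was higher after Egf in each of the 6 comparisons, by smaller amounts, and none passed the threshold. Kidney libraries at 2 h had 144, 146, 138 and 148 CPM after Egf, against 85.4, 126 and 88.4 CPM after vehicle. The 2 groups did not overlap, and the vehicle library nearest to the Egf libraries was replicate 2. The change was 0.53 ± 0.12 on the log2 scale (95% interval 0.27 to 0.78), with an edgeR adjusted p of 0.0919, where 0.256% of all genes passed and 3.29% had all Egf libraries above all vehicle libraries. It passed without vehicle replicate 2 (0.73, edgeR adjusted p = 0.00985), in DESeq2 (adjusted p = 0.0103) and in limma voom (adjusted p = 0.000191). The 6 adrenal cortex markers summed to 2.04 to 62.2 CPM in Egf kidneys and 1.37 to 2.15 CPM in vehicle kidneys at 2 h, 1 of the 5 tested rose, Cyp11b2 was at 0 throughout, and their part in the kidney values was not tested. At 6 h the kidney groups were close, with 99.5, 95.5, 101 and 86.5 CPM after Egf and 93.8, 81.6 and 87.1 CPM after vehicle, a log2 difference of 0.13 ± 0.12.

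In heart at 2 h, Srxn1 had 64.4, 78.9, 54.9 and 60.9 CPM after Egf, against 41.1, 41.9 and 24.3 CPM after vehicle, again with no overlap. The log2 difference was 0.86 ± 0.24 (95% interval 0.34 to 1.37), with an edgeR adjusted p of 0.344, where 0.211% of genes passed and 4.21% had all Egf libraries above all vehicle libraries. At 6 h it had 39.3, 51.2, 70.1 and 34.03 CPM after Egf and 27.8, 38.3 and 32.4 CPM after vehicle, which overlapped. That log2 difference of 0.57 ± 0.24 had an edgeR adjusted p of 0.466, where edgeR passed 0.0128% of all genes. It passed in limma voom alone among the alternatives run (0.61, adjusted p = 0.024). Without the libraries carrying markers of another organ the heart differences were 0.97 at 2 h and 0.50 at 6 h, and neither passed in edgeR. At 2 h the 9 hepatocyte markers summed to 78.2 to 9370 CPM in Egf hearts and 38.1 to 96.2 CPM in vehicle hearts, all 9 had the higher mean in Egf hearts, none passed, and their part in the Srxn1 value was not tested. Without the Egf heart with the highest sum, replicate 3, the Srxn1 difference was 0.93.

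In lung, Srxn1 had 97.3, 78.3, 51.7 and 76.2 CPM in Egf libraries at 2 h, against 34.7, 65.6 and 45.8 CPM in vehicle libraries. The ranges overlapped through vehicle replicate 2, and the log2 difference was 0.64 ± 0.21 (95% interval 0.20 to 1.08) with an edgeR adjusted p of 0.245, where 0.84% of genes passed. At 6 h it had 58.3, 45.8, 50.4 and 48.2 CPM in Egf libraries and 35.7, 46.7 and 39.7 CPM in vehicle libraries, a log2 difference of 0.32 ± 0.21, or 0.33 without Egf replicate 3. At 2 h the 9 hepatocyte markers summed to 391 to 3403 CPM in Egf lungs and 5.28 to 572 CPM in vehicle lungs, all 9 had the higher mean in Egf lungs, none passed, and their part in the Srxn1 value was not tested. No gene passed in lung or kidney at 6 h (0% of all genes tested). The neutrophil markers were higher after Egf at 2 h in these organs too, without overlap, with sums of 125 to 269 CPM in Egf lungs and 72.6 to 115 CPM in vehicle lungs, 1.44 to 2.63 CPM in Egf kidneys and 0.566 to 0.79 CPM in vehicle kidneys, and 2.68 to 8.84 CPM in Egf hearts and 0.783 to 1.75 CPM in vehicle hearts. Of the 7 markers, 3 of 6 tested rose in lung, 0 of 4 tested passed in heart and 0 could be tested in kidney, and their part in the Srxn1 values was not tested.

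Whether the Egf effect on Srxn1 differed among organs was asked in 1 fit over all 68 libraries. At 2 h the effect on none of the 10 genes differed among the 4 organs by edgeR, with an adjusted p of 0.297 for Srxn1 and 2.19% of all genes passing. The test at 6 h contains the comparison that chose the gene and is not given. Among lung, kidney and heart alone, a test chosen after the data were seen, none of the 10 genes passed at either time, where 0.064% of all genes passed at 2 h and 0% at 6 h. The 2 h difference for Srxn1 among the 4 organs passed in limma voom, with an adjusted p of 0.0382.

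**Figure D2:**
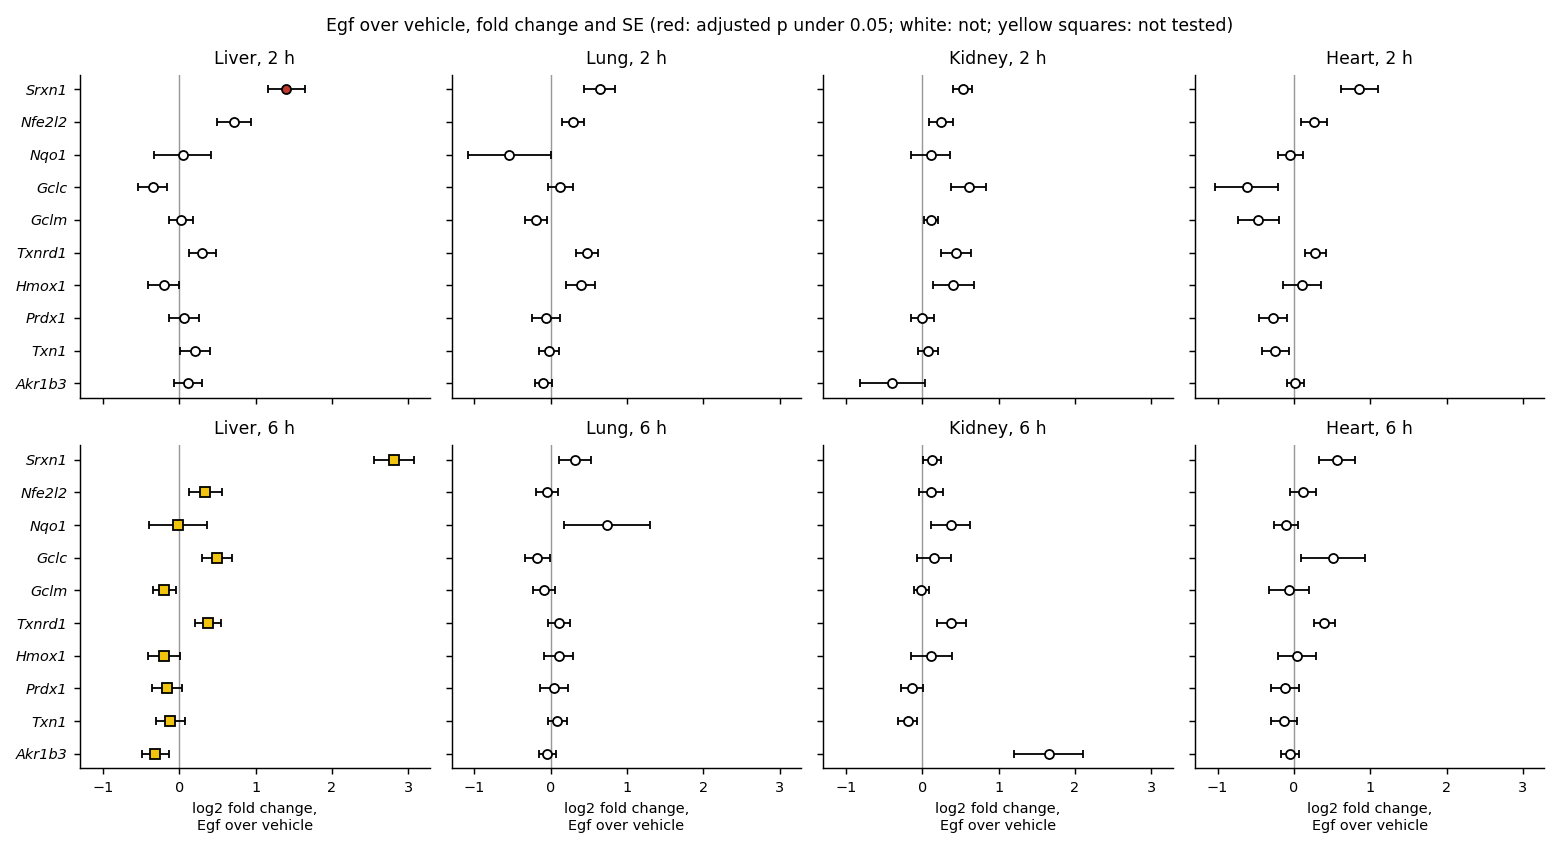
Log2 fold change of Egf over vehicle (horizontal axis) with its SE for the 10 genes in each organ, with 2 h above and 6 h below. Red points pass an edgeR adjusted p of 0.05, white points do not, and yellow squares mark the liver comparison at 6 h, which was not tested; Srxn1 in liver stands apart at both times, and the other 9 genes lie between -0.62 and 0.73 except Akr1b3 in kidney at 6 h.

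The other 9 genes had smaller log2 differences than Srxn1 in liver at 6 h. These ran between -0.31 and 0.49 with a median of -0.11, and 3 of the 9 were above 0. At 2 h in liver they ran between -0.35 and 0.72, 7 of 9 were above 0, and none passed. Over the 7 tested Egf comparisons, 0 of 63 tests of these 9 genes passed in edgeR, against 1 in DESeq2 and 4 in limma voom, and 6 had an unadjusted p under 0.05, as did 5.41% to 14.7% of all genes over these comparisons. The shares of all genes that DESeq2 and limma voom passed are not given, so their counts here and below have no background beside them.

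Nfe2l2, the gene of Nrf2 itself, had 30.7, 30.9, 34.8 and 46.7 CPM in Egf livers at 2 h, against 19.4, 23.9 and 21.8 CPM in vehicle livers. All Egf values were above all vehicle values, as for 7.04% of all genes. But of the untreated livers, with 34.8, 26.03 and 37.9 CPM, 2 lay in the Egf range and the other lay between the Egf and vehicle ranges. The log2 difference of Egf and vehicle was 0.72 ± 0.22, with an edgeR adjusted p of 0.0787, and it passed in DESeq2 (adjusted p = 0.0286), in limma voom (adjusted p = 0.0132) and in a fit of only the groups compared (edgeR adjusted p = 0.0233). At 6 h the groups overlapped, with 24.8, 35.4, 32.9 and 36.7 CPM in Egf livers and 24.6, 17.3 and 35.02 CPM in vehicle livers. In the other organs its log2 differences lay between -0.05 and 0.29.

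Prdx1 and Txn1, a peroxiredoxin that sulfiredoxin repairs and the thioredoxin that reduces it, were the most abundant of the 10 genes per length in liver. Prdx1 had 1384, 1125, 1095 and 702 CPM in Egf livers at 6 h, against 1189, 1360.2 and 1072 CPM in vehicle livers, and Txn1 had 259.6, 214, 193 and 132 CPM, against 205, 250.2 and 192 CPM. For both genes replicate 4 of the Egf livers, which had the highest Srxn1, had the lowest level. Per kilobase of gene length, Srxn1 stood at 121 ± 33.2 CPM (SD, n = 4) in Egf livers at 6 h and 17.2 ± 2.46 CPM (SD, n = 3) in vehicle livers, whereas Prdx1 stood at 354 ± 92.4 and 397 ± 47.6 CPM in the same groups. Over the 8 Egf comparisons the log2 differences of Prdx1 ran between -0.27 and 0.06, and those of Txn1 between -0.24 and 0.21.

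Txnrd1, the cytosolic thioredoxin reductase, was the one other gene whose Egf mean was above vehicle in all 8 comparisons, by 0.11 to 0.47 on the log2 scale, and none of the 7 tested passed in edgeR. Its Egf and vehicle libraries did not overlap in lung at 2 h, with 169, 140.5, 136 and 137 CPM after Egf, against 101, 129 and 85.8 CPM after vehicle. That log2 difference was 0.47 ± 0.14, with an edgeR adjusted p of 0.209, where 5.65% of genes had all Egf libraries above all vehicle libraries. They did not overlap in heart at 6 h either, with 67.97, 54.3, 61.5 and 49.7 CPM after Egf, against 46.3, 40.2 and 46.6 CPM after vehicle (0.40 ± 0.14, edgeR adjusted p = 0.466), where 4.4% of genes had this pattern. In kidney at 2 h it was 0.44 ± 0.19 and passed in limma voom alone (adjusted p = 0.00664). Livers at 6 h had 130.3, 133, 125 and 122 CPM after Egf and 109, 69.02 and 117 CPM after vehicle. A narrow range thus lay above a wide one without overlap, as for 4.52% of genes. The liver comparison at 6 h chose Srxn1 and was not tested.

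Gclc and Gclm encode the catalytic and the modifier subunit of glutamate-cysteine ligase, the first step of glutathione synthesis. Gclc had 198, 288, 188 and 195 CPM in Egf livers at 2 h and 308, 242 and 281 CPM in vehicle livers (-0.35 ± 0.19, edgeR adjusted p = 0.433), and at 6 h it had 234, 234, 170.5 and 188 CPM in Egf livers and 146, 117 and 178 CPM in vehicle livers. The vehicle livers at 6 h were low: they fell below the untreated livers, which had 229, 348 and 259.8 CPM, by 0.93 ± 0.21 on the log2 scale (SE), with an edgeR adjusted p of 0.0437. This was the only one of 80 tests of vehicle against untreated mice, over the 10 genes, 4 organs and both times, that passed in edgeR, 0.67% of all genes passed in it, and its vehicle libraries are those of the comparison that chose Srxn1. It did not pass without vehicle replicate 1 (adjusted p = 0.204) or 2 (0.222), without untreated replicate 2 (0.179) or 3 (0.0724), or in a fit of only the groups compared (0.152), all by edgeR. Kidney Gclc at 2 h, with 526, 470.3, 470.3 and 478 CPM after Egf, against 334, 319 and 303 CPM after vehicle, did not overlap (0.61 ± 0.23, edgeR adjusted p = 0.451). All Egf libraries were above all vehicle libraries there for 3.29% of genes.

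Gclm overlapped between the liver groups, with 331, 274, 265 and 201 CPM in Egf livers at 6 h and 333, 304 and 282 CPM in vehicle livers, and over the 8 comparisons its log2 differences ran between -0.46 and 0.11. The lowest of these was in heart at 2 h, where the difference of Gclc was negative too (-0.62 ± 0.41) and vehicle replicate 1 was the highest vehicle library for both. It had 51.5 CPM of Gclc and 85.6 CPM of Gclm, and it carried 2979.5 CPM of the 7 kidney tubule markers, against 388 CPM in vehicle replicate 2, 12.5 CPM in vehicle replicate 3 and 1.85 to 365 CPM in the Egf hearts at 2 h. Without this library the Gclc difference was 0.15, and the part of these markers in the Gclc and Gclm values was not tested.

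Nqo1, a quinone reductase and a standard readout of Nrf2, had 26.6, 15.1, 21.9 and 7.098 CPM in Egf livers at 6 h, against 17.3, 18.6 and 17.5 CPM in vehicle livers. The Egf values fell on both sides of the vehicle values. At 2 h it had 36.5, 24.995, 23.6 and 17.02 CPM in Egf livers and 14.5, 40.6 and 19.1 CPM in vehicle livers, a difference of 0.04 on the log2 scale. In lung at 2 h it had 16.7, 18.8, 4.18 and 10.1 CPM after Egf and 8.098, 36.6 and 9.82 CPM after vehicle, and the log2 difference of -0.54 ± 0.55 turned to 0.48 without vehicle replicate 2, which held the high value.

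Hmox1, the haem oxygenase that Bach1 represses, had 10.5, 11.4, 12.2 and 12.4 CPM in Egf livers at 6 h, against 11.7, 13.03 and 15.3 CPM in vehicle livers. Its lung libraries at 2 h did not overlap, with 49.3, 50.9, 57.5 and 46.2 CPM after Egf, against 35.9, 45.4 and 34.98 CPM after vehicle (0.39 ± 0.19, edgeR adjusted p = 0.61). All Egf libraries were above all vehicle libraries there for 5.65% of genes. In kidney at 2 h Hmox1 had 83.4, 53.6, 40.2 and 63.6 CPM after Egf and 30.9, 70.3 and 35.4 CPM after vehicle, a log2 difference of 0.40 ± 0.27. That difference was 0.91 in limma voom, the one alternative in which it passed (adjusted p = 0.0125).

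Akr1b3, aldose reductase, which turns glucose into sorbitol, was scarce in liver, at 9.08, 7.86, 8.403 and 7.31 CPM in Egf livers at 6 h and 8.36, 10.5 and 11.5 CPM in vehicle livers. In kidney at 6 h it had 147, 247, 154 and 574 CPM after Egf, against 88.7, 103 and 75.7 CPM after vehicle. The groups did not overlap, as for 5.33% of genes, but the untreated kidneys, with 169.8, 219.8 and 189 CPM, lay within the Egf range. The log2 difference was 1.65 ± 0.45 (95% interval 0.71 to 2.60), with an edgeR adjusted p of 0.417, and it was 1.03 without Egf replicate 4; it passed in limma voom alone (adjusted p = 0.0389). That Egf library also had the most Aqp2, a marker of collecting duct cells, at 1129.8 CPM, against 522 to 804 CPM in the other Egf kidneys and 346 to 694 CPM in the vehicle kidneys at 6 h, and the part of this in the Akr1b3 value was not tested.

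**Figure D3:**
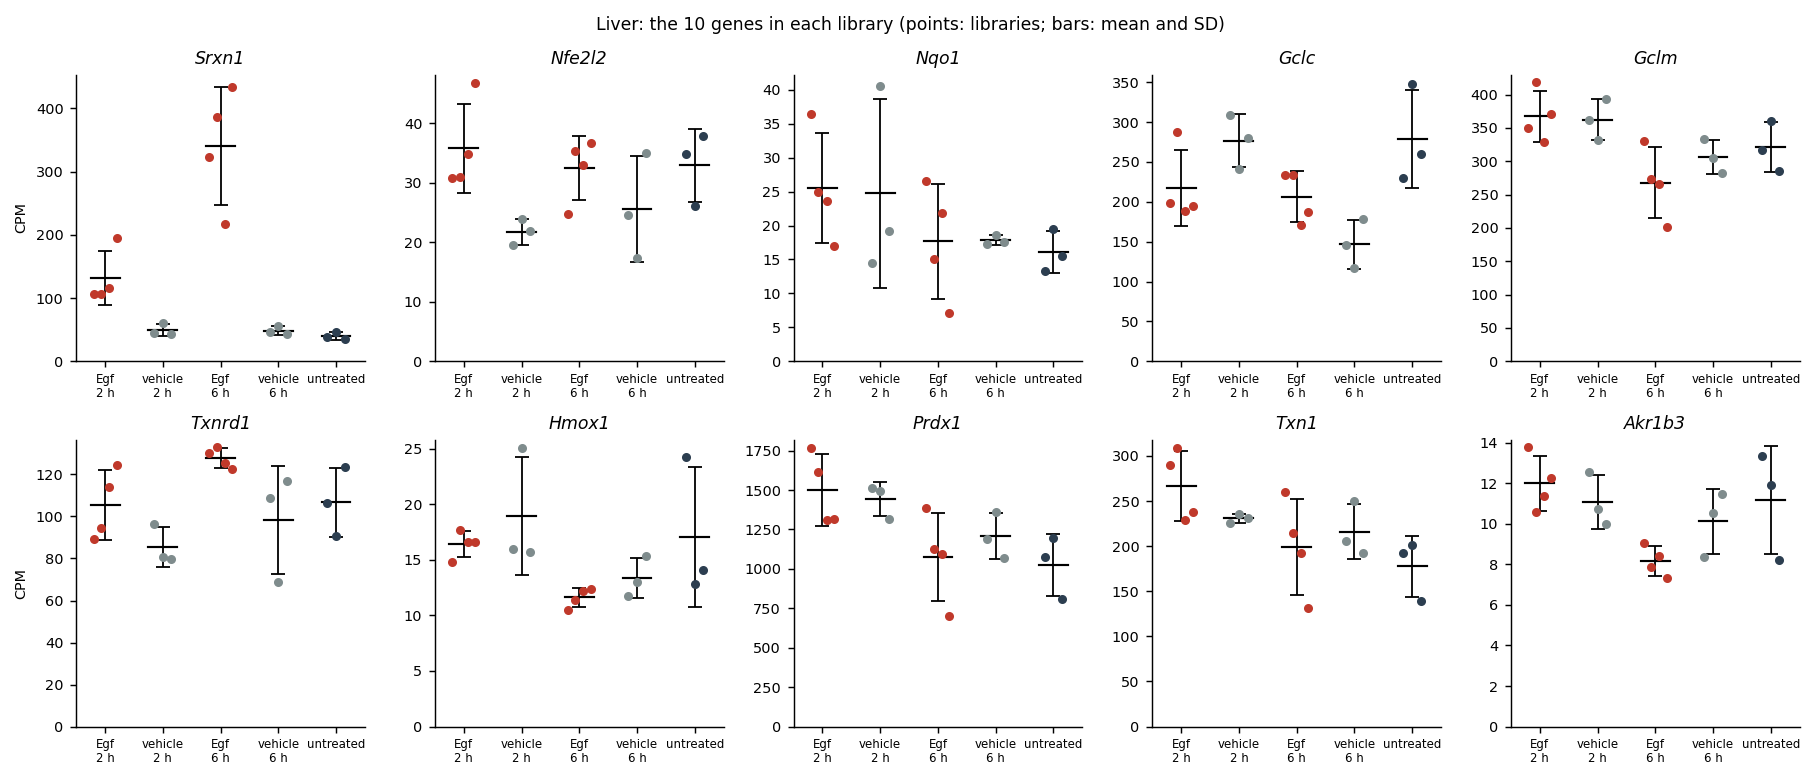
The 10 genes in the 17 liver libraries, in CPM (vertical axes start at 0, 1 scale per gene) by group; points are libraries, and bars with whiskers are the mean and SD. Srxn1 is the one gene in which both Egf groups stand above the vehicle and untreated groups. Nqo1, Gclc, Gclm, Hmox1, Prdx1, Txn1 and Akr1b3 overlap between Egf and vehicle at both times, Nfe2l2 at 6 h only and Txnrd1 at 2 h only.

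In all, 4 lists of further pathway genes were read beside these: 10 regulators of Nrf2, 16 genes of the thioredoxin and peroxiredoxin system, 38 other Nrf2 targets and 9 other antioxidant enzymes. In liver 72 of these genes passed the filter on low counts, and at 6 h they are described without a test, since that comparison chose Srxn1. The median log2 difference of the lists in liver at 6 h was 0.08 for the regulators, -0.25 for the thioredoxin and peroxiredoxin genes, 0.04 for the other targets and -0.11 for the other enzymes, beside 0.01 over all genes. At 2 h in liver 3 of these genes rose and 2 fell, beside 1.95% of all genes that rose and 1.97% that fell. The list medians were -0.03, 0.01, -0.12 and 0.07 in the same order, beside -0.02 over all genes.

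The regulators that rose are partners or rivals of Nrf2 on DNA. Bach1, the repressor, had 78.6, 81.4, 54.5 and 119 CPM in Egf livers at 2 h, against 28.2, 22.6 and 25.8 CPM in vehicle livers, a rise of 1.71 ± 0.21 on the log2 scale with an edgeR adjusted p of 6.46e-05. At 6 h Bach1 had 36.03, 26.9, 30.8 and 26.8 CPM in Egf livers and 44.4, 37.4 and 43.5 CPM in vehicle livers. All Egf livers were thus below all vehicle livers, as for 3.88% of all genes, and this was not tested. Mafk, a small Maf protein that pairs with either Nrf2 or Bach1, rose to 21.4, 25.9, 21.9 and 22.4 CPM in Egf livers at 2 h, against 13.6, 11.5 and 11.4 CPM in vehicle livers (0.91 ± 0.19, edgeR adjusted p = 0.00739). At 6 h Mafk had 12.9, 10.9, 14.3 and 16.2 CPM in Egf livers and 12.4, 14.4 and 10.9 CPM in vehicle livers.

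Among the targets, Osgin1, a growth inhibitor induced by oxidative stress, rose to 114, 169, 164 and 118 CPM in Egf livers at 2 h, against 82.5, 51.1 and 52.2 CPM in vehicle livers (1.19 ± 0.30, edgeR adjusted p = 0.0289). Untreated livers had 135, 67.9 and 168 CPM of it, 2 within the Egf range and 1 within the vehicle range. The Osgin1 call was lost without Egf replicate 2 (edgeR adjusted p = 0.0774) or 3 (0.0753), without vehicle replicate 2 (0.128) or 3 (0.155), with no filter (0.13) and with the replicate number as a block (0.0851). Abcc2, which exports glutathione conjugates into bile, fell to 138, 146, 160.0 and 156 CPM in Egf livers, against 279, 223 and 292 CPM in vehicle livers (-0.82 ± 0.16, edgeR adjusted p = 0.00534, and 0.052 without vehicle replicate 3). Sesn1, a sestrin, was in the list of thioredoxin and peroxiredoxin genes, not in that of targets. It fell to 9.54, 8.01, 8.504 and 9.93 CPM, against 16.8, 12.8 and 15.3 CPM (-0.73 ± 0.16, edgeR adjusted p = 0.0114, and 0.0815 and 0.0555 without vehicle replicate 1 or 3). For both Abcc2 and Sesn1 all Egf libraries were below all vehicle libraries, as for 9% of all genes.

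In lung at 2 h, 3 pathway genes rose and none fell, where 0.691% of all genes rose. In kidney 1 rose, where 0.217% of all genes did. Maff, another small Maf protein, had 67.01, 81.8, 76.2 and 94.4 CPM in Egf lungs, against 34.8, 29.3 and 49.3 CPM in vehicle lungs (1.08 ± 0.20, edgeR adjusted p = 0.0141, and 0.0961 and 0.1 without vehicle replicate 1 or 2). Mafk had 166, 182, 186 and 207 CPM in Egf lungs, against 125, 107 and 129.9 CPM in vehicle lungs (0.62 ± 0.09, edgeR adjusted p = 0.00348, and 0.0539 in a fit of only the groups compared). Small Maf genes thus passed in lung and in liver, and the difference between those organs was not tested. Ugdh, which makes the substrate for glucuronidation, had 62.5, 58.7, 57.9 and 68.6 CPM in Egf lungs, against 41.1, 40.7 and 47.8 CPM in vehicle lungs (0.52 ± 0.10, edgeR adjusted p = 0.018), and its call was lost without Egf replicate 1 or 4 (0.0555 and 0.0552), without vehicle replicate 1 or 2 (0.111 and 0.116), in a fit of only the groups compared (0.0797) and with the replicate block (0.0685).

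Kidney Maff was scarce, with 6.88, 5.88, 10.4 and 11.4 CPM after Egf at 2 h, against 3.13, 4.26 and 3.02 CPM after vehicle (1.31 ± 0.24, edgeR adjusted p = 0.0299). The kidney groups did not overlap, as for 3.29% of genes, yet the call was lost without Egf replicate 4 (edgeR adjusted p = 0.11), without vehicle replicate 1, 2 or 3 (0.134, 0.0732 and 0.179), in a fit of only the groups compared (0.507) and with the replicate block (0.146). In heart at 2 h, and in lung, kidney and heart at 6 h, no list gene passed in edgeR.

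**Figure D4:**
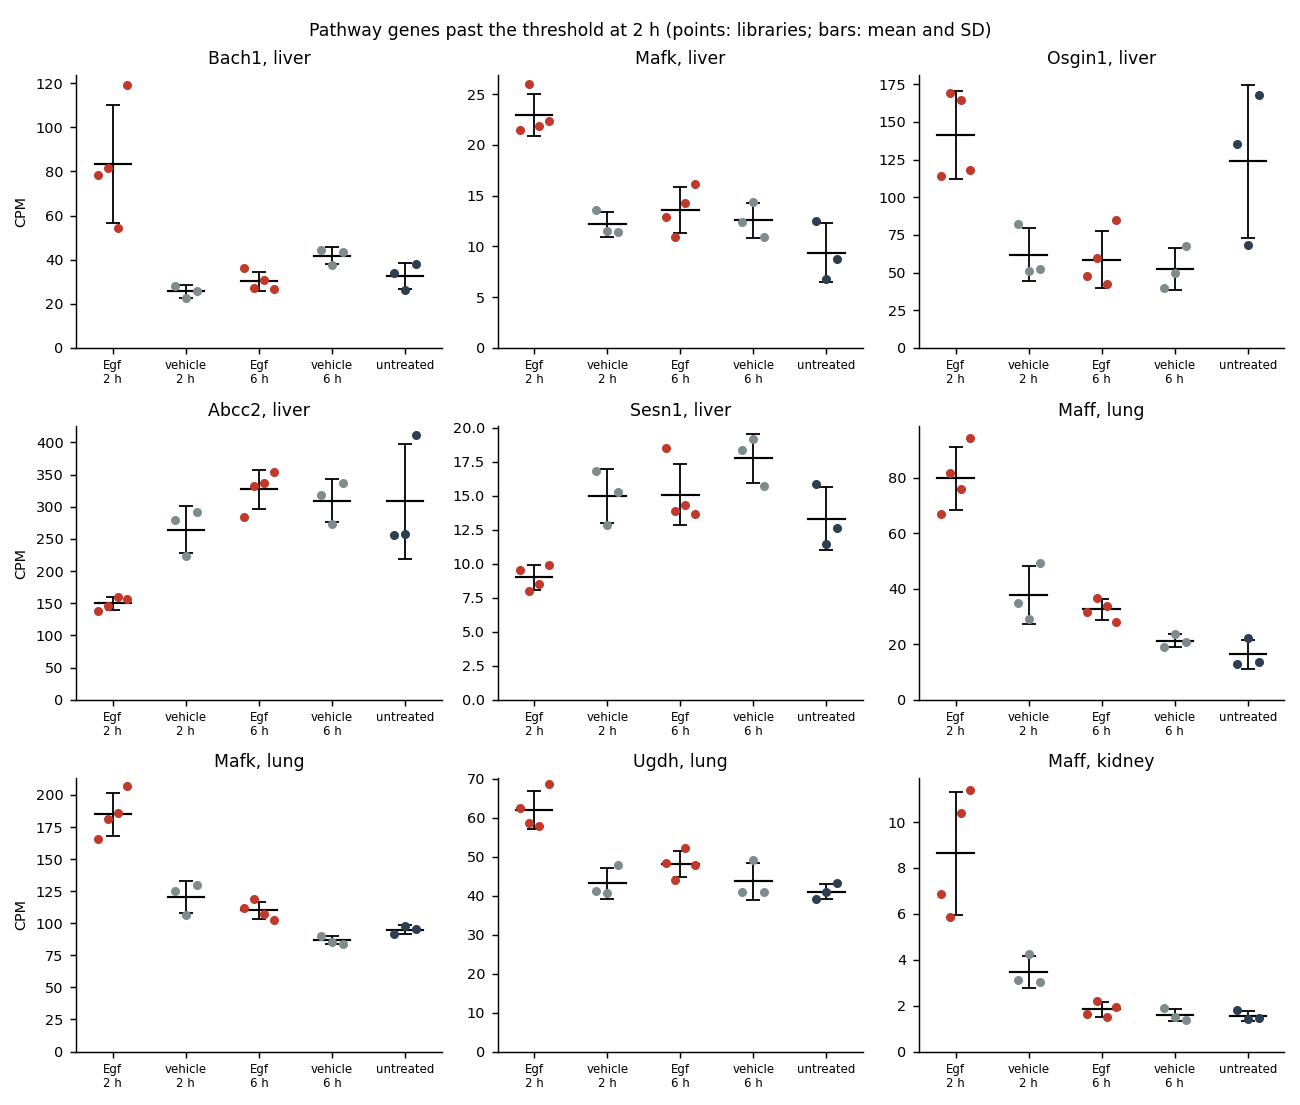
The 9 pathway gene and organ pairs that passed an edgeR adjusted p of 0.05 for Egf against vehicle at 2 h, in CPM (vertical axes start at 0, 1 scale per panel) by group; points are libraries, and bars with whiskers are the mean and SD. Egf and vehicle libraries do not overlap at 2 h in any panel, while at 6 h Mafk and Osgin1 in liver overlap vehicle and Bach1 in liver lies below it, as for 3.88% of all genes. At 2 h all Egf libraries were above all vehicle libraries for 7.04% of genes in liver, 5.65% in lung and 3.29% in kidney, and below for 9% in liver.

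Srxn1 was higher after injection of the vehicle alone than in untreated mice in every organ and at both times. Its log2 difference from untreated mice was between 0.17 and 0.55, positive in all 8 comparisons and without a call in edgeR. At 2 h it was 0.55 ± 0.22 in lung and 0.40 ± 0.13 in kidney. The Egf differences from vehicle there were of similar size, 0.64 ± 0.21 and 0.53 ± 0.12. In liver and heart at 2 h it was 0.32 ± 0.25 and 0.30 ± 0.25, beside larger Egf differences of 1.40 and 0.86. In limma voom it passed in lung at 2 h (0.80, adjusted p = 0.0305) and in kidney at 2 h (0.27, adjusted p = 0.028) and 6 h (0.29, adjusted p = 0.0422). Of the 72 vehicle tests of the other 9 genes, 1 passed in edgeR, 3 in DESeq2 and 8 in limma voom, and 13 had an unadjusted p under 0.05, as did 7.11% to 16.6% of all genes over these comparisons. Of all genes in that comparison, edgeR passed 0.155% at 2 h and 0.67% at 6 h in liver, 0.0656% and 0.101% in lung, 0.0256% and 0.211% in kidney, and 0.0128% and 0.0192% in heart. In lung, kidney and heart the change of the Egf effect between 2 h and 6 h passed for none of the 10 genes in edgeR, with 1 of 27 tests of the other 9 under an unadjusted p of 0.05, as for 4.24% to 6.52% of all genes. Of all genes it passed for 0.0417% in lung, 0.0192% in kidney and 0.0128% in heart.

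In untreated mice most of the 10 genes differed among organs, as did most of all genes tested. On the scale of the fit over all 68 libraries, Srxn1 stood at 65.7 ± 7.32 CPM in kidney, 62.8 ± 8.86 CPM in liver, 32.4 ± 4.68 CPM in heart and 21.5 ± 2.46 CPM in lung (SD, n = 3 each). Kidney and liver, neighbours in that order, did not differ beyond their spread (log2 difference of liver and kidney -0.06 ± 0.23, edgeR adjusted p = 0.849). Heart was below liver, by 0.95 ± 0.23 on the log2 scale (edgeR adjusted p = 0.00039), and lung fell below heart by 0.60 ± 0.23 (edgeR adjusted p = 0.022). The last step did not pass in DESeq2 (adjusted p = 0.0674), with RLE scaling (0.0679), without a filter (0.202) or without heart replicate 1 (0.107) or lung replicate 1 (0.0923). Scaled within each organ, the Srxn1 means were 75.6 CPM in kidney, 39.8 CPM in liver, 33.2 CPM in lung and 29.1 CPM in heart. The closeness of kidney and liver and the order of heart and lung thus depended on the scaling across organs. Of the 60 tests of the 10 genes over 6 pairs of organs, 45 passed in edgeR. Of all genes, 56.4% passed between liver and kidney, 61.7% between kidney and heart, 61.9% between liver and heart, 63.8% between lung and kidney, 66.3% between lung and heart and 71% between liver and lung. All 3 untreated hearts carried markers of another organ.

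Per kilobase of gene length, Prdx1 and Txn1 led in untreated liver, at 532 ± 96.4 and 267 ± 47.3 CPM, and Srxn1 stood at 22.3 ± 3.14 CPM there. Gclc and Gclm were highest in liver and kidney, with 117 ± 26.1 and 83.6 ± 5.49 CPM per kilobase for Gclc, against 27.2 ± 2.06 CPM in lung. Nqo1 was highest in heart, with 39.8 ± 1.72 CPM per kilobase there and 16.4 ± 3.18 CPM in liver, and lung was lowest at 3.18 ± 0.703 CPM. Akr1b3 likewise led in heart, at 28.1 ± 2.26 CPM per kilobase, and was lowest in liver, at 2.098 ± 0.471 CPM. Nfe2l2 varied least, between 12.8 ± 2.03 CPM per kilobase in heart and 23.4 ± 1.38 CPM in lung. These levels are on the scale of the fit over all 68 libraries. Scaled within each organ, Nfe2l2 ran from 8.67 CPM per kilobase in liver to 36.2 CPM in lung and did not vary least. Nqo1 then stood at 36.02 CPM per kilobase in kidney and 35.8 CPM in heart.

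**Figure D5:**
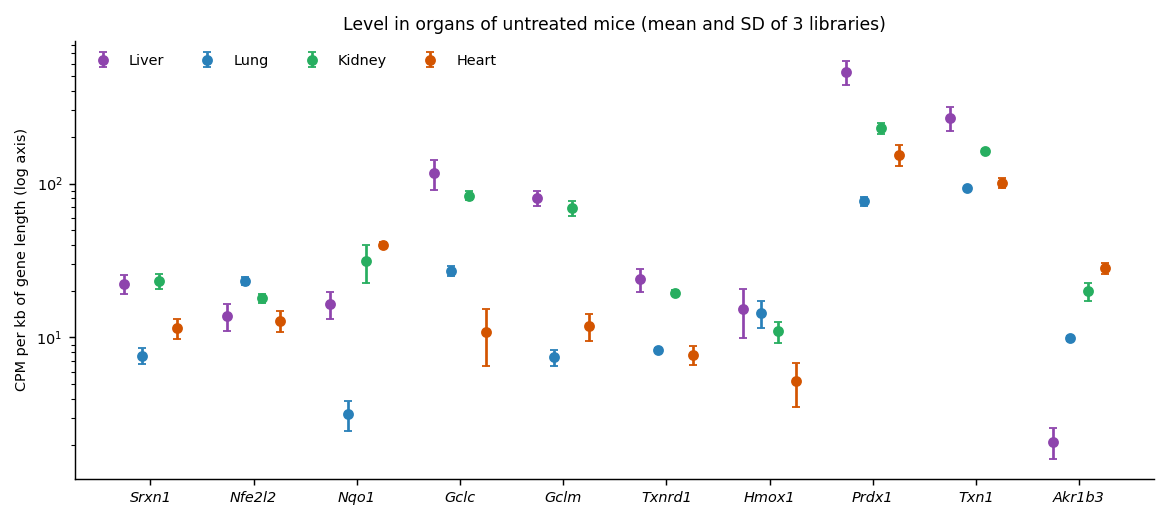
Level of the 10 genes in organs of untreated mice, in CPM per kilobase of gene length on a log axis, from the fit over all 68 libraries; points are means and whiskers the SD of 3 libraries. On this scale Srxn1, Gclc, Gclm and Txnrd1 are higher in kidney and liver than in lung and heart, whereas Nqo1 and Akr1b3 are highest in heart.

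Likeness to Srxn1 was ranked over all genes as a description, and the ranking includes the liver Egf 6 h value that chose Srxn1. Over the 16 injected groups, each taken as the mean log2 CPM minus that of the organ's untreated libraries, the 5 highest Pearson correlations among 16908 genes were those of Tubb6 (0.92), Dppa3 (0.92), G3bp1 (0.91), Bcl2l14 (0.87) and Sema3e (0.86). Among the other 9 members Txnrd1 had the highest, at 0.40, followed by Nfe2l2 at 0.26, and the rest lay between -0.32 and 0.11. Groups of an organ share untreated libraries. Without the liver Egf 6 h group the values were 0.90 for Tubb6, 0.75 for Dppa3, 0.85 for G3bp1, 0.56 for Bcl2l14 and 0.53 for Sema3e, beside 0.53 for Nfe2l2 and 0.44 for Txnrd1. Spearman correlations over all 16 groups were 0.83 for Tubb6, 0.73 for G3bp1, 0.56 for Dppa3 and Bcl2l14 and 0.55 for Sema3e, beside 0.61 for Txnrd1. In Egf livers at 6 h Dppa3 had a mean of only 1.69 CPM and Bcl2l14 of 0.91 CPM. Dppa3 passed the filter on low counts in liver alone, and Sema3e did not pass it in liver. Tubb6, a tubulin gene, had 30.5, 48.97, 26.3 and 62.4 CPM in Egf livers at 6 h, against 9.35, 12.6 and 9.96 CPM in vehicle livers, and the same library, Egf replicate 4, was the highest for both genes.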

How the data were processed

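Reads were aligned with HISAT2 2.0.5 and counted per gene with featureCounts 1.5.0-p3 on mm39, per the submitters' processing notes, and the authors deposited raw read counts, with gene lengths in bases, for 68 libraries in 1 table with 0 columns that could not be mapped to a sample. For RNA selection, trimming, annotation release and counting options, nothing was given in the sources used here. Libraries were not directional, per the labels' protocols, so reads of a gene and of an antisense or overlapping gene cannot be told apart.

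Each organ was fitted on its own, with all 17 libraries and 5 groups, in edgeR 4.0.16 under R 4.3.3 (filterByExpr by group, TMM scaling, robust quasi-likelihood fit and test). A gene passed at an adjusted p under 0.05. The SE is the absolute log2 fold change divided by the square root of F. A second fit of all 68 libraries in 20 groups gave untreated levels and the test among organs. Alternatives were RLE scaling, no filter, DESeq2 1.42.0, limma 3.58.1 voom with quality weights, only the groups compared, the replicate number, or the number that the labels share between organs, as a block, each library left out in turn, and no libraries carrying markers of another organ. The procedure was tested on simulated data.

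The 10 genes, the pathway lists and the marker lists were chosen with earlier results of these data known. All 10 genes are named, with up to 4 genes that passed per pathway list and Egf comparison, by smallest p. Likeness to Srxn1 ranked genes that reached a mean of 1 CPM in any group, on log2 CPM with a prior count of 2, and the 5 highest are named. Marker genes were summed as CPM of the raw totals, without TMM. Promoter windows are RefSeq's, on GRCm38.p6. No 2 libraries held identical counts.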

Additional observations from a re-analysis of the deposited data

Results flagged for a closer look

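In each of the 80 groups of 4 Egf libraries, over 10 genes, 4 organs and both times, the library farthest from the rest was compared with Dixon's critical value at 95%, which chance passes in about 1 group in 20. It was passed in 6 groups, all at 2 h. Srxn1 in liver had 195 CPM in Egf replicate 4, against 107 to 115 CPM in the other 3 libraries. Gclc passed in 3 organs. It had 288 CPM in liver Egf replicate 2, with 188 to 198 CPM in the others, 526 CPM in kidney Egf replicate 1, with 470.3 to 478 CPM in the others, and 234 CPM in lung Egf replicate 4, the low side, with 285 to 289 CPM in the others. Lung Egf replicate 1 was the highest for Gclm, at 91.2 CPM with 73.2 to 75.6 CPM in the others, and for Txnrd1, at 169 CPM with 136 to 140.5 CPM in the others. In 0 genes did all Egf libraries lie above vehicle in one organ and below it in another at the same time.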

How the results depend on the processing

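Over 753 alternative values, 682 were kept, 34 lost a call, 10 gained one, 6 reversed and 21 moved. Kept meant the same direction and side of the threshold, or for counts within 1.5 times. For liver differences at 6 h, which were not tested, it meant within the pooled SD of log2 CPM between libraries from the main value. Srxn1 in liver passed at 2 h in all 13 alternatives, with log2 changes of 1.15 to 1.59, and its 6 h difference lay between 2.62 and 2.98. Srxn1 in kidney at 2 h passed in DESeq2 (0.53) and limma voom (0.69), and ran between 0.42 and 0.73 with 1 library left out, the high value without vehicle replicate 2. Srxn1 in heart at 6 h passed in limma voom (0.61). Gclc in heart at 2 h (-0.62) was 0.15 without libraries carrying another organ and ran between -0.96 and 0.15 with 1 library left out, and Nqo1 in lung at 2 h (-0.54) ran between -0.90 and 0.48. Liver against kidney for untreated Srxn1 (-0.06) was 0.0033 with no filter and ran between -0.19 and 0.025 with 1 library left out. The cause was not tested.

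Of the 10 genes over 4 organs at 2 h, 1 call became 3 in DESeq2, 5 in limma voom, 2 with only the groups compared and 1 to 2 with 1 library left out. At 6 h in lung, kidney and heart 0 became 2 in limma voom. In vehicle against untreated mice 1 became 3 in DESeq2, 11 in limma voom, 0 with only the groups compared and 0 to 1 with 1 library left out. For the change of the Egf effect between times, 0 became 1 in limma voom. The 9 pathway calls at 2 h became 14 in DESeq2, 15 in limma voom and 5 to 8 with 1 library left out, 5 without vehicle replicate 2, and 0 at 6 h became 10 in limma voom. For the Egf effect among 4 organs at 2 h, 0 became 2 in limma voom. Among lung, kidney and heart, 0 became 3 at 2 h and 1 at 6 h in limma voom, and 1 at 6 h without libraries carrying another organ, which was Akr1b3 (edgeR adjusted p = 0.0479). Without the shares of all genes that DESeq2 and limma voom passed, nothing about the genes is read from their larger counts.

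Replicate numbers did not pair Egf with vehicle libraries: over 24 same-numbered pairs the correlation of their deviations ran between -0.57 and 0.68, 7 were over 0.1, and 7 correlated best with their own number. With the number as a replicate block, Srxn1 in liver at 2 h was 1.21 and 6 of the 9 pathway calls were left.

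Leaving out injected libraries and DESeq2 were not run for the test among organs. Without libraries carrying another organ, heart vehicle against untreated and untreated heart could not be fitted, since no untreated heart library was left.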

Other observations

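Vehicle and untreated mice differed by these further values among the 10 genes, none of which passed in edgeR. Hmox1 in kidney had 30.9, 70.3 and 35.4 CPM in vehicle kidneys at 2 h, against 18.3, 25.1 and 22.8 CPM in untreated kidneys (1.04 ± 0.29 on the log2 scale, edgeR adjusted p = 0.237), and passed in DESeq2 (adjusted p = 0.0348) and limma voom (adjusted p = 0.0303). Nqo1 in lung had 8.098, 36.6 and 9.82 CPM in vehicle lungs at 2 h, against 6.06, 9.42 and 7.42 CPM in untreated lungs (1.25 ± 0.60, edgeR adjusted p = 0.418). Akr1b3 in kidney at 6 h had the opposite order, with 88.7, 103 and 75.7 CPM in vehicle kidneys and 169.8, 219.8 and 189 CPM in untreated kidneys (-1.11 ± 0.46, edgeR adjusted p = 0.582). Txn1, thioredoxin, was above its untreated level in all 8 vehicle comparisons, by 0.04 to 0.40 on the log2 scale.

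Vehicle replicate 2 at 2 h, which carries the same number in the labels of all 4 organs, was the highest of the 3 vehicle libraries in all 4 organs for Srxn1 and Nqo1, 2 of the 10 genes, as for 1.64% of the 12598 genes tested in all 4 organs. It was the highest in at least 3 organs for 4 of the 10 genes, as for 19.5% of all genes. Its Nqo1 level was 40.6 CPM in liver, 36.6 CPM in lung, 106 CPM in kidney and 92.3 CPM in heart. The other vehicle libraries had 14.5 and 19.1 CPM in liver, 8.098 and 9.82 CPM in lung, 50.6 and 58.8 CPM in kidney, and 56.999 and 67.1 CPM in heart. Of its reads 18S rRNA took 0.0126% in liver, against 1.51% to 3.47% in the other livers. In kidney it had the lowest 18S share of the 17 libraries, 1.76%, and the highest mitochondrial share, 7.08%, and in heart the lowest 18S share, 0.537%. These libraries are part of every Egf comparison at 2 h, and the part of these shares in the values was not tested.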
